A study of Mus musculus with 9 samples.

Results

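Expression across all genes was compared between Mac1+ bone marrow cells with and without a Flt3 internal tandem duplication (ITD), in mice without Cre. The members of the comparison were the genes that reached 1 RPKM (reads scaled to gene length and library size) in at least 2 of the 9 libraries of the study. Of 23420 gene symbols, 10868 met this, and they were compared on the log2(RPKM + 1) scale in 5 libraries. All mice were C57BL/6 and carried Ezh2 fl/fl together with Runx1 fl/fl, so both groups share these floxed alleles. The ITD group (n = 2) carried Flt3 ITD/+ in addition. The control group is called WT here (n = 3), although its mice carry the floxed alleles too. A further group, DKOITD (n = 4), carried both floxed pairs, Flt3 ITD/+ and Rag1Cre+, a recombinase driven from Rag1, a gene of lymphoid progenitors, and entered the fit to share its estimate of spread. Each library was made from 100 cells sorted into lysis buffer and was made by Smart-seq2, which reads whole transcripts without keeping their strand. Ages are not stated in the labels. The labels do not tie each library to its own animal, so the p-values describe the spread among these libraries only, which may be technical.

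Flt3 encodes a receptor tyrosine kinase of early blood progenitors, whose ligand drives the growth of dendritic cells. An ITD lengthens the part of the receptor next to the membrane and lets it signal without ligand, through STAT5, RAS and MAPK, and PI3K. Mac1 is an integrin, with its αM chain encoded by Itgam, on granulocytes, monocytes and some dendritic cells. Dendritic cells show peptides to T cells on major histocompatibility complex (MHC) class II molecules. In pooled cells, fewer cells of a type and less RNA per cell cannot be told apart.

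Whole reads, recovered from RPKM, numbered 5108022 in ITD 1 and 13744891 in ITD 2, and to between 14770406 and 23124435 in the WT libraries. Genes above 0 numbered 10393 and 10480 in ITD and 10484 to 11214 in WT (p = 0.2 in a two-sided exact permutation test, the smallest value that 2 against 3 libraries allow). Rescaling each column to its own recovered reads moved the median log2 difference of all tested genes from 0 to 0.14. The granulocyte genes S100a8, S100a9, Csf3r and Lyz2 were present in all 5 libraries. Marker genes listed for other cells were read unevenly. The globin Beta-s was listed at 0 in ITD 1 and at 17.0 RPKM in WT 3, but at 2669 RPKM in ITD 2, 17103 RPKM in WT 1 and 5372 RPKM in WT 2. Erythroid levels thus differed between libraries within both groups. The T cell marker Cd3e was listed at 0 in all 5 libraries, but other members of its list were read. The T cell list summed to 17.6 and 2.44 RPKM in ITD and to 11.6, 13.7 and 9.16 RPKM in WT. The natural killer (NK) cell list summed to 196 and 65.0 RPKM in ITD and to 100, 336 and 345 RPKM in WT. Its members Nkg7 and Ccl5 also stand on the lists of primary granule and inflammatory genes, so these sums do not measure NK cells alone.

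The targeted genes and the sort marker did not pass the test. Flt3 measured 0 and 10.4 RPKM in ITD 1 and 2 and 0.0146, 0.145 and 0 RPKM in WT 1 to 3. Only ITD 2 held more than a trace, so the groups overlapped. The log2 difference was 1.68 ± 0.91 (SE; limma adjusted p = 0.684), and without ITD 2 it turned to -0.072. Gene-level values cannot show the duplicated stretch, so they check nothing about the allele. Ezh2, the methyltransferase of the polycomb complex PRC2, measured 12.9 and 19.0 RPKM in ITD against 9.69, 2.05 and 12.4 RPKM in WT (log2 difference 1.14 ± 0.83 SE; limma adjusted p = 0.75). Runx1, a transcription factor of blood cells, measured 4.42 RPKM in both ITD libraries and 10.7, 13.02 and 3.53 RPKM in WT (log2 difference -0.74 ± 0.55 SE; limma adjusted p = 0.754). Itgam measured 78.1 and 97.3 RPKM in ITD against 100.5, 143 and 90.3 RPKM in WT (log2 difference -0.32 ± 0.48 SE; limma adjusted p = 0.880).

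A dendritic cell gene, Cd209a, rose in ITD. It encodes a C-type lectin of the DC-SIGN family, and is located on chromosome 8 (mm10, 3743397 to 3748984, minus strand). It measured 189 RPKM in ITD 1 and 569 RPKM in ITD 2. In WT it measured 1.40 RPKM in WT 1 and was listed at 0 in WT 2 and WT 3. The 2 ITD libraries therefore lay far above all 3 WT libraries, with a mean of 379 ± 269 RPKM (SD, n = 2) in ITD and of 0.468 ± 0.810 RPKM in WT (SD, n = 3). The log2 difference was 7.94 ± 0.77 (SE; limma adjusted p = 0.00248). Of all tested genes, 0.0092% passed higher, which is Cd209a alone, and 0% passed lower (limma, Benjamini-Hochberg adjusted p under 0.05). At an unadjusted p under 0.05 stood 862 genes, 542 of them higher (4.99%) and 320 lower (2.94%). Among the settings that ended the call were leaving out ITD 2 (adjusted p = 0.157), fitting the 5 compared libraries alone (adjusted p = 0.25) and using no filter on low values (adjusted p = 0.110). The number of genes past the threshold was 10 without WT 1 and 47 without WT 3, of which 46 were higher.

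In DKOITD, Cd209a measured 2628, 356, 1965 and 1977 RPKM in libraries 1 to 4. DKOITD 2 lay between the ITD libraries and the others above both, and the difference from ITD did not pass (log2 difference 2.07 ± 0.73 SE; limma adjusted p = 0.189). Of all tested genes, 0.212% passed between DKOITD and ITD. Close relatives of Cd209a measured below it. Cd209d was listed at 0 in ITD 1 and in all WT libraries and measured 43.1 RPKM in ITD 2, and Cd209c measured 7.48 RPKM in ITD 2 and was listed at 0 in the 4 others. Reads of relatives this similar can be divided by the authors' counting, so the level of each is uncertain.

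The 250 bases before the Cd209a start site are shown because it is the gene that passed, and those of the class II gene H2-Aa for comparison with the large differences described next. Both are from RefSeq (GRCm38.p6), 5′ to 3′ on the gene's own strand, Cd209a from chr8:3748985-3749234 (minus) and H2-Aa from chr17:34287824-34288073 (minus). Capitals mark a CCAAT box (CCAAT or ATTGG, either strand), a motif of many promoters and of the conserved class II promoter module.
Cd209a: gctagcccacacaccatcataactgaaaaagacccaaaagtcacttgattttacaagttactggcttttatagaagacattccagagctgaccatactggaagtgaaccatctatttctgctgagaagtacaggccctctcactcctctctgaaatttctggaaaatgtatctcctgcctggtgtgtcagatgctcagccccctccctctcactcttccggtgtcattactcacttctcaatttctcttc
H2-Aa: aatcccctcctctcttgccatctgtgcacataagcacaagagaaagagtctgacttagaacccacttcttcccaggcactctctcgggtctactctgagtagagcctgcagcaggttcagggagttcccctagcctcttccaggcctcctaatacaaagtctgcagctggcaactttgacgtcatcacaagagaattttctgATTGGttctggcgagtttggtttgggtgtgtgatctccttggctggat
The Cd209a window holds no match, and H2-Aa holds 1 at -48 from the start site. Over windows of 300 bases, which add the first 50 bases of the gene, a CCAAT box was found in 37.4% of all 32851 windows and in 38.2% of the 34 windows matched to the list of dendritic cell and class II genes. The motif was thus about as frequent in that list as elsewhere, and a match is a description of letters only.

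The main chains of MHC class II and their invariant chain measured higher in both ITD libraries than in any WT library, but none of these genes passed the threshold over all genes. Cd74, the invariant chain that guards the peptide groove, measured 1782 and 4183 RPKM in ITD against 351, 93.3 and 20.6 RPKM in WT (log2 difference 4.93 ± 0.92 SE; limma adjusted p = 0.217). H2-Aa, the α chain of I-A, measured 733 and 2166 RPKM in ITD against 290.5, 5.54 and 9.85 RPKM in WT (log2 difference 5.52 ± 1.23 SE; limma adjusted p = 0.242). Its partner chain H2-Ab1 measured 1199 and 3515 RPKM in ITD against 343, 70.6 and 12.7 RPKM in WT (log2 difference 4.88 ± 1.06 SE; limma adjusted p = 0.234). ITD 2 was the higher ITD library and WT 1 the highest WT library for each of these genes. H2-Eb1, the β chain of I-E, measured 282 and 878 RPKM in ITD against 212, 0 and 1.09 RPKM in WT, so WT 1 came close to ITD 1 (log2 difference 6.03 ± 1.66 SE; limma adjusted p = 0.378). Without WT 1, Cd74, H2-Aa, H2-Ab1 and H2-Eb1 passed, with log2 differences of 5.92, 7.23, 6.04 and 8.43 (limma adjusted p = 0.0185, 0.00200, 0.0375 and 0.00200). What sets WT 1 apart for these genes was not tested.

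The peptide loading helpers H2-DMa and H2-DMb1 followed the same order of groups. H2-DMa measured 94.7 and 229 RPKM in ITD against 43.1, 17.1 and 23.5 RPKM in WT, and H2-DMb1 80.5 and 122 RPKM against 41.9, 5.85 and 6.59 RPKM. Ciita, the transactivator that switches class II genes on, was low, at 2.51 and 3.79 RPKM in ITD against 1.31, 0 and 0.0303 RPKM in WT. The modulators H2-Oa and H2-Ob were read in ITD 2, at 26.6 and 13.6 RPKM, and listed at 0 in ITD 1. Class II genes resemble each other, so reads can be divided among them.

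**Figure D1:**
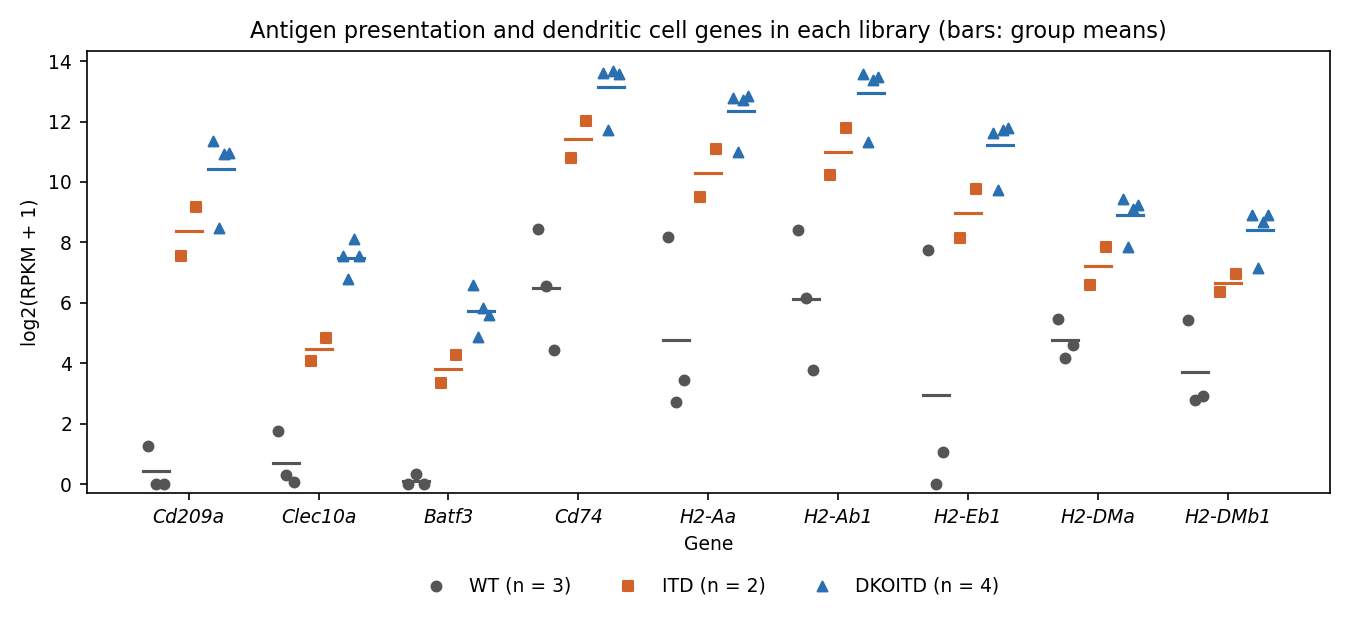
Levels of 9 dendritic cell and antigen presentation genes as log2(RPKM + 1) on the vertical axis, with a point for each library and a bar for the group mean. Both ITD libraries (squares) lie above all 3 WT libraries (circles) for each gene shown, and WT 1 is the highest circle for all of them except Batf3. The 4 DKOITD libraries (triangles) are shown for reference.

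Batf3 and Clec10a, also genes of dendritic cells, were near the threshold without passing it. Batf3, a transcription factor required by the cross-presenting dendritic cells, measured 9.28 and 18.2 RPKM in ITD against 0, 0.248 and 0 RPKM in WT (log2 difference 3.71 ± 0.55 SE; limma adjusted p = 0.0552). Clec10a, a galactose-binding lectin, measured 15.9 and 27.6 RPKM in ITD against 2.35, 0.236 and 0.0575 RPKM in WT (log2 difference 3.75 ± 0.56 SE; limma adjusted p = 0.0552). Both genes were low in WT, and the groups did not overlap. Clec10a passed without WT 1 (limma adjusted p = 0.00917) and without WT 3 (limma adjusted p = 0.0363), and Batf3 without WT 3 (limma adjusted p = 0.0340) and at a pseudocount of 0.1 (limma adjusted p = 0.0325). In DKOITD, Clec10a measured between 109 and 276 RPKM, above ITD (log2 difference 3.04 ± 0.53 SE; limma adjusted p = 0.0440). Batf3 measured between 28.4 and 94.4 RPKM there, and its difference from ITD did not pass (limma adjusted p = 0.105).

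Other genes of the same list varied, and several markers were listed at 0 in both groups. Zbtb46, a transcription factor of the classical lineage, and Ccr7, Ccl17, Ccl22 and Fscn1, which mark mature and migrating dendritic cells, were listed at 0 in all 5 libraries. Xcr1, a receptor of the cross-presenting subset, was also listed at 0, and Clec9a, another of its markers, measured at most 1.73 RPKM. Itgax, which encodes the dendritic cell integrin CD11c, measured 0.900 and 1.44 RPKM in ITD against 1.79, 0.0659 and 0 RPKM in WT. Irf8, a factor of dendritic cells and monocytes, overlapped, at 21.0 and 28.1 RPKM in ITD against 23.4, 23.9 and 9.59 RPKM in WT. Cd40, a costimulatory receptor of activated antigen-presenting cells, measured 5.49 and 23.2 RPKM in ITD against 3.65, 0 and 0 RPKM in WT (log2 difference 2.91 ± 1.02 SE; limma adjusted p = 0.502). Dpp4, a surface peptidase, measured 2.98 and 7.54 RPKM in ITD against 2.31, 0 and 0.794 RPKM in WT (log2 difference 1.69 ± 0.67 SE; limma adjusted p = 0.570). For Cd40 and Dpp4 both ITD libraries lay above all WT libraries, with WT 1 the nearest.

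The list of dendritic cell and class II genes held 39, of which 38 were tested, and Cd209a alone passed. In 13 of them (34.2%) both ITD libraries lay above all WT libraries, and in 2 (5.26%) below, beside 10.1% and 8.99% of all tested genes. At an unadjusted p under 0.05 stood 17, all of them higher, beside 4.99% higher and 2.94% lower of all tested genes. Only 26 of the 38 reached 1 RPKM in any WT library, against 9903 of all 10868 tested genes. The rest met the filter through ITD or DKOITD alone and had little room to lie below WT, so these counts lean upward. This list and the others were also chosen with earlier results of these data known, so their shares are descriptions and not tests. The median log2 difference was 1.65, against 0 for all tested genes, and 0.54 without ITD 2. Averaged over the list, log2(RPKM + 1) was 3.28 and 4.38 in ITD and 2.57, 1.53 and 1.71 in WT. In the plasmacytoid dendritic cell list, 9 of 15 genes were tested and its surface marker Siglech was listed at 0 in all 5 libraries. Its 4 members with both ITD libraries above WT (44.4%) included Bst2 and Irf7, which are also induced by interferon. Runx2 alone lay below (11.1%), beside the 10.1% and 8.99% of all tested genes. The list's median log2 difference was 0, and 6 of the 9 reached 1 RPKM in a WT library.

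**Figure D2:**
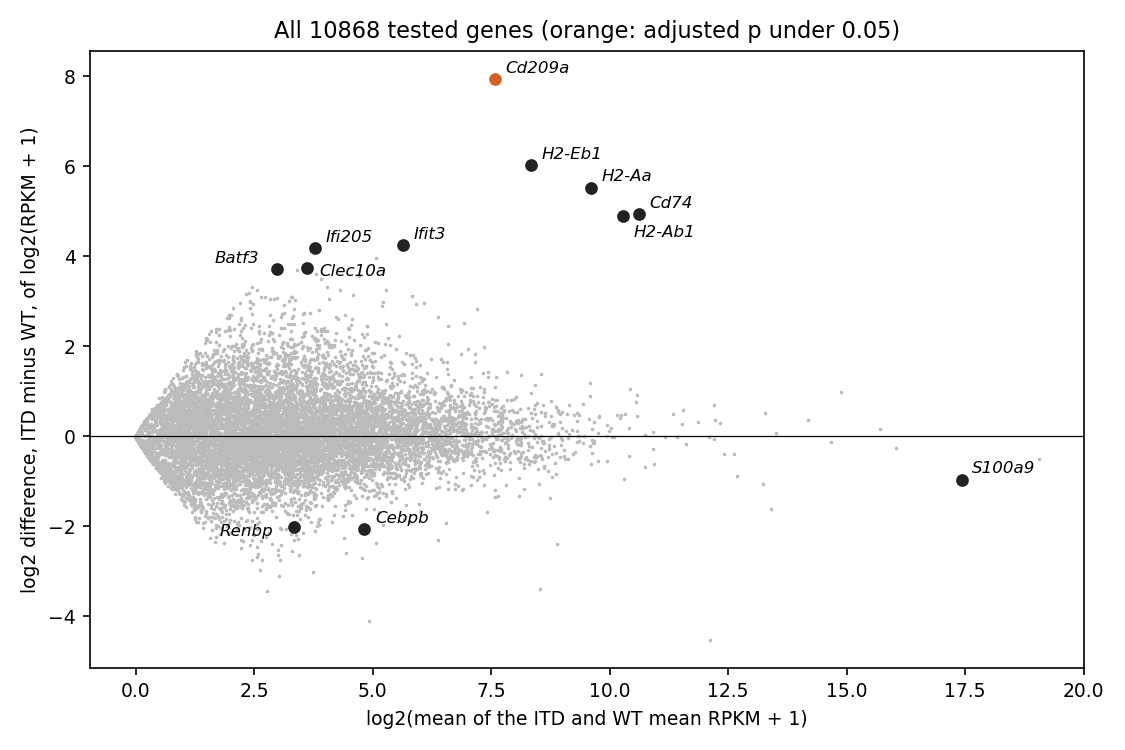
Log2 difference between ITD and WT (vertical) against the mean level of the 2 groups (horizontal, log2 scale) for the 10868 tested genes, with each gene a point. Cd209a, in orange, is the gene past the threshold at 7.94, and the class II genes H2-Eb1, H2-Aa, Cd74 and H2-Ab1 stand apart from the other highly expressed genes at 4.88 to 6.03 without passing.

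Genes induced by interferon measured higher in ITD as a list, with no member past the threshold. Ifit3, an antiviral protein that binds foreign RNA with its relatives, measured 50.98 and 137 RPKM in ITD against 3.42, 2.08 and 5.62 RPKM in WT (log2 difference 4.24 ± 1.65 SE; limma adjusted p = 0.563). Ifit1, its partner, measured 14.3 and 69.6 RPKM in ITD against 0.0810, 6.10 and 5.92 RPKM in WT (log2 difference 3.13 ± 1.29 SE; limma adjusted p = 0.598). The groups did not overlap for either gene, and ITD 2 held the higher level of both. The windows before these 2 start sites are shown because they hold the interferon-stimulated response element, which was found for part of the list. Capitals mark its letters GAAANNGAAA or, on the other strand, TTTCNNTTTC, in 250 bases from RefSeq (GRCm38.p6), 5′ to 3′ on the plus strand, Ifit1 from chr19:34640639-34640888 and Ifit3 from chr19:34583279-34583528.
Ifit1: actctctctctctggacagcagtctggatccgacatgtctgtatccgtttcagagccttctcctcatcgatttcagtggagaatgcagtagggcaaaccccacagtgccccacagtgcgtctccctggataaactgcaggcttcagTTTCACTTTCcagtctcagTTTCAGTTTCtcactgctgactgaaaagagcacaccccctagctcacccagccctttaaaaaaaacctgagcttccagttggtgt
Ifit3: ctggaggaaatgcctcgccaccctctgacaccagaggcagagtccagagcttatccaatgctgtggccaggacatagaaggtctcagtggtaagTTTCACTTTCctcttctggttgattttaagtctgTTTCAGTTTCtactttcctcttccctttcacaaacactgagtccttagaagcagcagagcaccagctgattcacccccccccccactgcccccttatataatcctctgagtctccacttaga
Matches begin at -104 and -85 from the start site of Ifit1 and at -156 and -122 from that of Ifit3. Over windows of 300 bases, 29 of 56 windows of the list (51.8%) held a match, from 27 of the 48 genes that had a window, beside 3.44% of all windows and 2.94% of those of dendritic cell and class II genes. Cd209a held none.

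Phf11d and Phf11b, neighbouring interferon-induced genes that resemble each other, showed the same order of groups. Phf11d measured 11.5 and 25.6 RPKM in ITD against 0.0994, 1.55 and 0 RPKM in WT, and Phf11b 47.6 and 80.8 RPKM against 23.4, 0.0760 and 10.2 RPKM. Their log2 differences were 3.69 ± 1.05 and 3.25 ± 1.32 (SE; limma adjusted p = 0.394 and 0.594). Ifi205, a DNA sensor family member, measured 24.8 and 25.3 RPKM in ITD against 0.0331, 0 and 1.87 RPKM in WT (log2 difference 4.18 ± 0.74 SE; limma adjusted p = 0.148), and it passed without WT 3 (limma adjusted p = 0.0340). Not every interferon gene followed. Irf9, a transcription factor of interferon signalling, measured 21.2 and 63.5 RPKM in ITD against 45.1, 54.1 and 45.1 RPKM in WT.

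Of the 60 interferon response genes, 58 were tested and 0 passed (limma), with 14 at an unadjusted p under 0.05, all higher. Over all tested genes, 4.99% stood higher and 2.94% lower at that p. In 25 (43.1%) both ITD libraries lay above all WT libraries and in 0 below, beside the 10.1% and 8.99% of all tested genes. The list was chosen with earlier results of these data known, so this share is a description. The median log2 difference was 1.05, and 0.50 without ITD 2. Averaged over the list, log2(RPKM + 1) was 4.86 and 5.72 in ITD and 4.13, 3.67 and 4.37 in WT. The ITD libraries thus did not overlap with WT, and ITD 2 stood higher than ITD 1. In DKOITD the mean was 5.94, 5.73 and 5.81 in libraries 1, 3 and 4 and 3.36 in DKOITD 2, below every WT library. Without DKOITD 2, a library of neither group that enters the estimate of spread, Ifit3 passed (limma adjusted p = 0.0230).

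**Figure D3:**
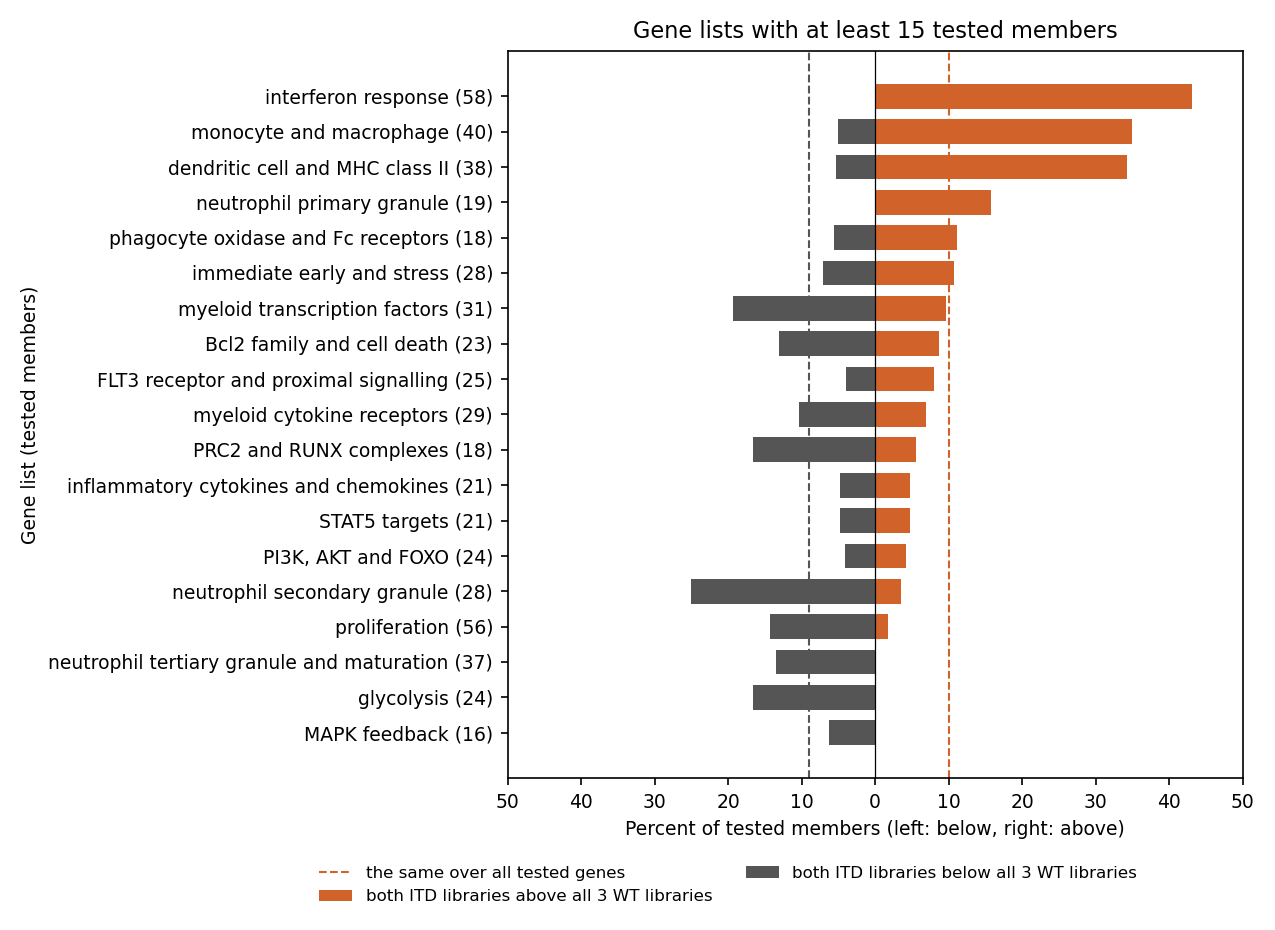
Share of each list's tested members (number in parentheses) whose 2 ITD libraries both lie above (orange, to the right) or below (grey, to the left) all 3 WT libraries, in percent, for the larger lists. Dashed lines give the shares over all tested genes, 10.1% above and 8.99% below, and the interferon (43.1%), monocyte (35.0%) and dendritic (34.2%) lists reach farthest to the right. The lists were chosen with earlier results of these data known.

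Monocyte and macrophage genes lay above WT more often than below, with no member past the threshold. Of 42 genes 40 were tested, 0 passed (limma), and at an unadjusted p under 0.05 stood 8 higher and 1 lower. Over all tested genes, 4.99% stood higher and 2.94% lower at that p. Both ITD libraries lay above all WT libraries in 14 (35.0%) and below in 2 (5%), beside 10.1% and 8.99% of all tested genes, with a median log2 difference of 0.40. This list too was chosen with earlier results of these data known. The mean log2(RPKM + 1) over the list overlapped, at 4.98 and 5.21 in ITD against 5.46, 4.49 and 4.35 in WT, with WT 1 the highest. Ms4a6b, a membrane protein of monocytes, measured 163 and 241 RPKM in ITD against 63.9, 15.98 and 37.4 RPKM in WT (log2 difference 2.52 ± 0.55 SE; limma adjusted p = 0.234). Cd68, a lysosomal protein of macrophages, measured 245 and 208 RPKM in ITD against 139, 3.07 and 55.4 RPKM in WT (log2 difference 2.84 ± 1.04 SE; limma adjusted p = 0.535). Treml4, a receptor of patrolling monocytes, went the other way, at 7.33 and 3.81 RPKM in ITD against 28.5, 17.02 and 20.6 RPKM in WT (log2 difference -1.83 ± 0.55 SE; limma adjusted p = 0.407). The receptors that mark the lineage overlapped, with Csf1r at 36.0 and 61.3 RPKM in ITD against 64.9, 52.0 and 19.3 RPKM in WT. Ccr2, which draws classical monocytes out of the marrow, measured 210 and 240 RPKM in ITD against 229, 110 and 80.9 RPKM in WT.

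Neutrophil genes stayed at high levels in both groups, with few differences. S100a9, the calcium-binding partner of S100a8, measured 117676 and 118311 RPKM in ITD against 199257, 300483 and 203262 RPKM in WT (log2 difference -0.96 ± 0.74 SE; limma adjusted p = 0.761). S100a8 measured 425929 and 467998 RPKM in ITD against 670182, 725585 and 518857 RPKM in WT (log2 difference -0.50 ± 0.77 SE; limma adjusted p = 0.882). Both ITD libraries lay below all WT libraries for both genes, and neither gene passed. Lcn2, an iron-withholding protein of secondary granules, measured 5654 and 6505 RPKM in ITD against 8084, 16639 and 14830.4 RPKM in WT. The secondary granule proteins Ltf, Camp and Ngp had log2 differences of -0.06, -0.25 and 0.15.

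Of 28 secondary granule genes 0 passed (limma; 0 higher and 1 lower at an unadjusted p under 0.05), with both ITD libraries below WT in 7 (25.0%) and above in 1 (3.57%), beside 8.99% and 10.1% of all tested genes. The gene at that p was Stfa3, a protease inhibitor of a family of close copies, at 4.14 and 4.76 RPKM in ITD against 75.5, 62.2 and 7.96 RPKM in WT. Over all tested genes, 4.99% stood higher and 2.94% lower at that p. Of 37 tested tertiary granule and maturation genes 0 passed (limma; 0 and 2 at that p, the cytokine Il1b and the metalloreductase Steap4), with both ITD libraries below WT in 5 (13.5%) and above in 0. Il1b measured 10.1 and 3.28 RPKM in ITD against 30.7, 48.6 and 21.3 RPKM in WT (log2 difference -2.25 ± 0.81 SE; limma adjusted p = 0.533). Steap4 was listed at 0 in both ITD libraries and measured 3.73, 1.60 and 0.550 RPKM in WT. The list medians were -0.09 and -0.19, and turned to 0.13 and 0.02 when scaled per recovered read, where all genes stood at 0.14. Primary granule genes were uneven within both groups, with the protease Elane at 2115 and 241 RPKM in ITD against 442, 94.7 and 3203 RPKM in WT. Of 19 tested members 0 passed (limma; 1 higher and 0 lower at an unadjusted p under 0.05). Both ITD libraries lay above WT in 3 (15.8%), Lyz2, Ctsc and Igsf6, and below in 0, beside 10.1% and 8.99% of all tested genes.

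**Figure D4:**
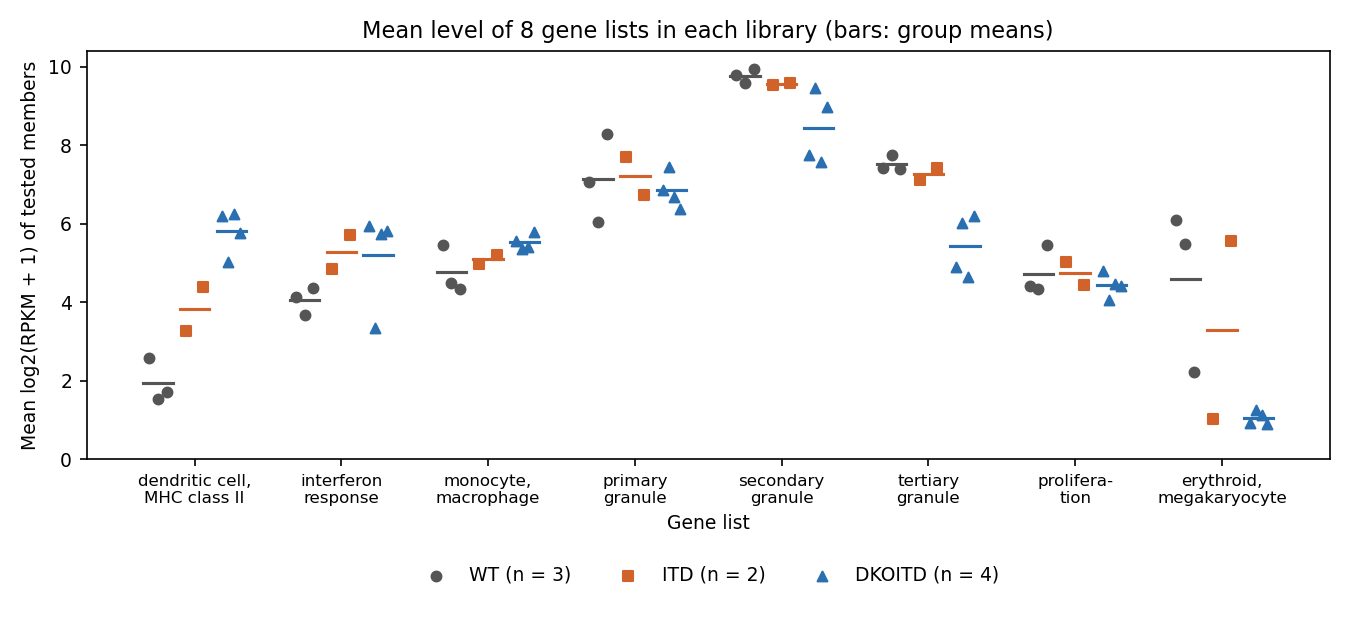
Mean log2(RPKM + 1) over the tested members of 8 gene lists (vertical), with a point for each library and a bar for the group mean. The ITD squares lie above the WT circles for the dendritic list (3.28 and 4.38 against 1.53 to 2.57) and the interferon list (4.86 and 5.72 against 3.67 to 4.37). They overlap with or lie close to WT for the granulocyte lists, and overlap for the monocyte list, where WT 1 is the highest circle. The erythroid list is scattered within both groups.

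Among transcription factors of the myeloid lineage, Cebpb and Cebpd of the C/EBP family and Sfpi1 measured lower in both ITD libraries than in any WT library without passing. Cebpb, which sustains granulocyte output under stress and monocyte survival, measured 7.65 and 11.2 RPKM in ITD against 44.1, 67.3 and 24.5 RPKM in WT (log2 difference -2.06 ± 0.62 SE; limma adjusted p = 0.411). Cebpd measured 29.9 and 20.3 RPKM in ITD against 52.99, 109 and 67.7 RPKM in WT (log2 difference -1.53 ± 0.56 SE; limma adjusted p = 0.533). Sfpi1, which encodes PU.1, measured 148 and 72.4 RPKM in ITD against 151, 244 and 470 RPKM in WT (log2 difference -1.32 ± 0.45 SE; limma adjusted p = 0.488). The groups did not overlap for these genes, although ITD 1 and WT 1 nearly met for Sfpi1. Cebpa and Cebpe overlapped, with Cebpa at 5.17 and 12.2 RPKM in ITD against 9.57, 1.67 and 2.42 RPKM in WT. Of the 31 tested factors 0 passed (limma; 1 higher, Batf3, and 3 lower at an unadjusted p under 0.05), with both ITD libraries above WT in 3 (9.68%) and below in 6 (19.4%), beside 10.1% and 8.99% of all tested genes. Over all tested genes, 4.99% stood higher and 2.94% lower at that p.

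Genes of FLT3 signalling showed no member past the threshold, which Cd209a alone passed among all tested genes, so this absence says little about the pathway. Of 25 tested genes of the receptor and its proximal partners, both ITD libraries lay above WT in 2 (8%) and below in 1 (4%), under the shares of all genes, with 0 higher and 1 lower at an unadjusted p under 0.05. Sh2b3, an adaptor that restrains cytokine receptors, was the gene below, at 2.83 and 2.23 RPKM in ITD against 13.02, 9.01 and 7.27 RPKM in WT (log2 difference -1.58 ± 0.55 SE; limma adjusted p = 0.498). Among 21 STAT5 targets, 1 lay above (4.76%) and 1 below (4.76%), beside 10.1% and 8.99% of all tested genes. At that p 2 of the STAT5 targets stood higher and 0 lower, beside 4.99% and 2.94% of all tested genes. The median log2 difference of the STAT5 targets was 0. Pim3, a survival kinase, was the gene above, at 4.67 and 1.09 RPKM in ITD against 0.0221, 0 and 0.285 RPKM in WT (log2 difference 1.65 ± 0.64 SE; limma adjusted p = 0.563). Bcl2l1, which encodes the survival protein BCL-XL, was the gene below, at 5.03 and 10.6 RPKM in ITD against 16.2, 11.3 and 15.03 RPKM in WT. The feedback inhibitor Socs2 was listed at 0 in all 5 libraries, and Cish, another of them, measured 0.0986 and 0 RPKM in ITD against 0, 6.09 and 2.16 RPKM in WT.

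The lists of the 2 other signalling branches also held no member past the threshold. Of 16 tested MAPK feedback genes 0 lay above and 1 below (6.25%), with 0 at an unadjusted p under 0.05 in either direction. Of 24 PI3K, AKT and FOXO genes 1 lay above (4.17%) and 1 below (4.17%), again with 0 at that p. Over all tested genes, 10.1% lay above and 8.99% below, and 4.99% stood higher and 2.94% lower at that p. Dusp6, the phosphatase that damps ERK, measured 63.7 and 51.8 RPKM in ITD against 77.3, 45.9 and 36.6 RPKM in WT.

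Proliferation genes showed no common direction in their median (0.03), though both ITD libraries lay below all WT libraries in 8 of 56 (14.3%) and above in 1 (1.79%), beside 8.99% and 10.1% of all tested genes, which also stand beside the next lists. Cenpe, a motor of the mitotic spindle, measured 5.35 and 3.63 RPKM in ITD against 7.51, 22.7 and 17.7 RPKM in WT (log2 difference -1.52 ± 0.54 SE; limma adjusted p = 0.507). Of 24 glycolysis genes 4 lay below (16.7%) and 0 above, among them the hexokinase Hk1 at 3.73 and 3.25 RPKM in ITD against 11.4, 14.5 and 4.57 RPKM in WT. Of 18 PRC2 and RUNX complex genes 3 lay below (16.7%) and 1 above, among them Ezh1, the relative of Ezh2, at 3.15 and 2.89 RPKM in ITD against 12.05, 17.9 and 3.95 RPKM in WT. No gene of these 3 lists passed (limma; 0 higher and 1, 0 and 1 lower at an unadjusted p under 0.05). Over all tested genes, 4.99% stood higher and 2.94% lower at that p. Kit, the stem cell factor receptor, measured 1.07 and 1.25 RPKM in ITD against 2.55, 8.19 and 5.38 RPKM in WT, and Cd48, a surface marker gained as stem cells differentiate, 109 and 153 RPKM against 95.5, 17.6 and 53.5 RPKM.

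Over all tested genes, 5 stood at an adjusted p under 0.1, all higher in ITD. Besides Cd209a, Batf3 and Clec10a they were Trf, which encodes the iron carrier transferrin, and Cyp4v3, a fatty acid hydroxylase, both named after their values were seen. Trf averaged 119 RPKM in ITD and 14.7 RPKM in WT (log2 difference 2.96 ± 0.44 SE; limma adjusted p = 0.0552). Cyp4v3 averaged 9.68 RPKM in ITD and 0.115 RPKM in WT (log2 difference 3.24 ± 0.51 SE; limma adjusted p = 0.0706). Among other large differences, Clec4b1, a lectin of dendritic cells and monocytes, measured 29.9 and 61.6 RPKM in ITD against 11.8, 0.902 and 1.1 RPKM in WT, and it passed without WT 1 (limma adjusted p = 0.0138). Slc46a3, a lysosomal carrier, measured 26.05 and 21.6 RPKM in ITD against 6.60, 0 and 0.107 RPKM in WT (log2 difference 3.60 ± 0.88 SE; limma adjusted p = 0.292). Bcl2a1a, a survival gene with near-identical copies, measured 3.48 and 14.7 RPKM in ITD against 0.0671, 0 and 0.217 RPKM in WT (log2 difference 2.94 ± 0.64 SE; limma adjusted p = 0.234).

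The named large differences downward were of mixed function, and none of those given here passed. Ribosomal protein genes were left out of this choice by rule, so the mixed function describes only the genes that remained. Some of those left out, such as Rps20, Rpl13 and Rpl39, also measured lower in both ITD libraries than in any WT library. None of them passed, and the family was not counted here. Lars2, the mitochondrial leucyl-tRNA synthetase, measured 113 and 81.6 RPKM in ITD against 383, 2011 and 171 RPKM in WT, with WT 2 far above the rest. Renbp, an enzyme of amino sugar metabolism, measured 2.86 and 2.89 RPKM in ITD against 23.3, 11.5 and 11.8 RPKM in WT (log2 difference -2.02 ± 0.46 SE; limma adjusted p = 0.252). Renbp was the tightest of these within ITD, and in DKOITD it measured 25.6, 33.6, 22.1 and 18.8 RPKM, higher than in ITD (limma adjusted p = 0.0372). Letm1, of the inner mitochondrial membrane, Lsm4, of the RNA decay machinery, and Slc15a4, an endolysosomal carrier, had log2 differences of -2.41, -2.31 and -2.05. ITD 2 was the lowest of the 5 libraries for Letm1, Lsm4 and Slc15a4.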

How the data were processed

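RNA was measured in 9 libraries of 100 sorted Mac1+ cells each. The authors deposited RPKM for each gene symbol. The submitters' processing notes name STAR 2.4.2a, SAMtools 1.1, HTSeq 0.6.1p1 and mm10, without their roles. Annotation, counting settings and the scaling of RPKM are not stated. Since strand was not kept, overlapping, antisense and near-identical genes may share reads.

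Whole reads were recovered from the RPKM for 15564 of 15566 genes above 0 (tolerance 0.0001 reads) and served for depth and 1 rescaled alternative. Denominators were 0.919 and 0.853 times these reads in ITD and 0.703 to 0.810 times in WT. No 2 libraries held identical values. No column was left unmapped.

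Groups and replicate numbers came from sample titles. Genes at 1 RPKM or more in at least 2 of 9 libraries were fitted as log2(RPKM + 1) with limma 3.58.1 in R 4.3.3 (lmFit, eBayes with a trend; all 9 libraries, group as the only factor), two-sided, with Benjamini-Hochberg adjustment over all 10868 genes and a threshold of 0.05. The script was tested on simulated data. Differences on this scale understate changes of low genes and depend on the pseudocount where a group is listed at 0.

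Named genes are Ezh2, Runx1, Flt3 and Itgam, and every gene past the threshold. They include the 10 largest differences in each direction among genes at an unadjusted p under 0.01. For these, the groups do not overlap and the higher group averages at least 10 RPKM. Unnamed models, ribosomal protein genes and small RNAs were left out of these 10. Up to 4 members of each list whose groups do not overlap were also named. Some of these are not reported here. Other genes are list members given as values, chosen after their values were seen. The 26 lists hold 671 genes, 549 of them tested, and the lists and members were chosen with earlier results of these data known. The filter uses DKOITD too: 216 tested genes were at 0 in all ITD and WT libraries. Positions are from GENCODE vM21 and promoter windows from RefSeq.

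Alternatives were another pseudocount, other filters, a fit of 5 libraries, quantile normalization, scaling per recovered read, library weights, the replicate number as a block, and leaving out each library.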

Additional observations from a re-analysis of the deposited data

Results flagged for a closer look

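Both values concern DKOITD 2, a library outside the compared groups that entered the estimate of spread. Of 7 values tested in the 4 DKOITD libraries, 2 had a lowest library separated from the others by more of the group's range than Dixon's critical value for 4 samples allows, where chance flags about 1 in 20 groups. Cd209a stood at 8.48 on the log2(RPKM + 1) scale in DKOITD 2 and between 10.94 and 11.36 in the others. The mean log2(RPKM + 1) of the interferon response list stood at 3.36 in DKOITD 2 and between 5.73 and 5.94 in the others. The cause was not tested.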

How the results depend on the processing

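With 2 against 3 libraries and a median SE of 0.59 on the log2 scale, small differences were not detectable. Large ones could also fail to pass, such as H2-Eb1 at 6.03, so a gene that did not pass is not shown to be unchanged. The shallowest of the 5 libraries was ITD 1. The count of genes past the threshold was 1 (Cd209a, higher in ITD). It was 0 in the fit of the 5 compared libraries, 0 with the replicate block, 2 at a pseudocount of 0.1 (Cd209a and Batf3) and 3 without a filter on low values (Mir26a-1, Shf and Rab15, and not Cd209a). Leaving out each library gave counts from 0 to 47, of which 0 to 46 were higher and 0 to 1 lower: 0 without ITD 2, 2 without DKOITD 2 (Cd209a and Ifit3), 10 without WT 1 and 47 without WT 3, all of the last 2 including Cd209a. The counts under the other filter, library weights, quantile normalization and scaling per recovered read were 1, Cd209a each time. Its log2 difference lay between 7.14 and 10.4 over the 17 alternatives. The replicate block gave it 8.004 (limma adjusted p = 0.0576). The deviations of same-numbered ITD and WT libraries from their group means correlated at -0.0335 and 0.0343 across genes. The deviations of the 2 ITD libraries mirror each other by construction, so these correlations cannot show whether the replicate numbers pair the libraries.

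For the 86 named genes, 1444 of 1460 alternative values kept their direction and side of the threshold, 11 passed it, 4 no longer passed, all of Cd209a, and 1 reversed, Flt3 at -0.072 without ITD 2, or 3.43 without ITD 1. The cause of each change was not tested. The median of the dendritic list ranged from 0.54 to 2.86 and that of the interferon list from 0.50 to 1.43.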
